A study of Mus musculus with 11 samples.

Results

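The genes described here are 10 mouse genes of the insulin and insulin-like growth factor (IGF) system: the ligand Igf1, the receptors Igf1r and Insr, the adaptors Irs1 and Irs2, and the binding proteins Igfbp3, Igfbp4, Igfbp5, Igfbp6 and Igfbp7. They are 10 of the 55414 gene identifiers in the data and 10 of the 14556 genes with enough reads to be tested. They were chosen by the measured expression of Igfbp3 and Irs1, which stood out between the groups in earlier results of these same libraries, so the values of those genes are given as a description with no test. The other 8 genes were tested within the fit over all genes. RNA came from the apex of C57BL/6 mouse hearts and was sequenced in bulk, with 4 libraries from hearts with no treatment (NR), 4 from apexes given 40 Gy by standard proton radiotherapy (S-PRT) and 3 from apexes given 40 Gy by FLASH proton radiotherapy (F-PRT). FLASH delivers its dose at an ultra-high dose rate. Irradiation was focal, on the apex, as a single dose, and the study collected tissue 2 weeks later to compare the effects of each modality. Neither age nor sex is labelled, nor whether each library stands for its own animal, and p-values therefore reflect only how these libraries vary, which may be technical in part.

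Insulin and IGF1 bind a pair of related receptor tyrosine kinases, and the activated receptor phosphorylates the docking proteins IRS1 and IRS2. These recruit phosphatidylinositol 3-kinase, which switches on the kinase Akt, and Akt in turn promotes glucose uptake and protein synthesis and keeps FoxO transcription factors out of the nucleus. In heart muscle this pathway supports growth and fuel use, while IGF-binding proteins hold secreted IGF in the blood and in the matrix around cells. Igfbp7 is an exception among them, since it binds IGF weakly and is known mainly from blood vessels.

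Both adaptor genes carry the same pair of short motifs near their start sites, which is why their promoter stretches are shown. Each stretch has 60 bases, is written 5′ to 3′ on the strand of the gene and comes from RefSeq on GRCm38.p6. Capitals mark the E-box CACGTG, which is bound by basic helix-loop-helix factors, and TGTTTTG, the core of the insulin response element known from liver genes. Irs1 lies at chr1:82291515-82291574 (minus strand), Irs2 at chr8:11008934-11008993 (minus strand) and Irs4, a further adaptor gene of the family, at chrX:141725332-141725391 (minus strand).
Irs1: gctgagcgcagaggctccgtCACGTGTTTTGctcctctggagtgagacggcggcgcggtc
Irs2: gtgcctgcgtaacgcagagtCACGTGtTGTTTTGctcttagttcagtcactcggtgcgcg
Irs4: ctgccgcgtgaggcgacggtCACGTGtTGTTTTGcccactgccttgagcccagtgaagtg

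In Irs1 the E-box begins 115 bases before the start site and shares 2 letters with the TGTTTTG that follows it. In Irs2 it begins 44 bases before the start site and in Irs4 154 bases before, and in both genes 1 base lies between the motifs. The motifs were searched on both strands in windows from 250 bases before to 50 bases after each start site. Of 32851 such windows, 7.15% held CACGTG, 6.28% held TGTTTTG, and 0.0548% held both within 10 bases of each other. RefSeq windows were at hand for 9 of the 10 genes, and Irs1 and Irs2 were the only ones among them with either motif. The forkhead core TGTTTAC, bound by FoxO factors, stood in 3.65% of all windows and in 0 of the 9. The TATA box TATAAA stood in 13.6% of all windows and in those of Igfbp4 and Igfbp6. These matches describe letters in the windows and are not evidence of binding. Irs4 itself had 0 counts in all 11 libraries, so the comparison of expression below rests on Irs1 and Irs2.

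Libraries held 20758200 to 40136600 expected counts, of which mitochondrially encoded transcripts took 24.2% to 43.8%. Summed TPM (a level per transcript length, scaled to the same total in each library) of 7 cardiomyocyte markers was 27200 to 54200, while the atrial markers Sln and Myl7 were at 0 in 8 and 5 libraries, and the 6 adipocyte markers summed to at most 0.37 TPM. Libraries differed in a trend with transcript length, which set NR apart from both irradiated groups, while these overlapped each other. Each gene's expression relative to its mean over libraries was set against transcript length, and the Spearman correlation over genes was 0.34 to 0.42 in NR hearts, -0.26 to 0.27 after S-PRT and -0.56 to -0.16 after F-PRT. It has no p-value, since genes are not independent replicates. By mean deposited length, Igf1r (10814 bases), Irs1 (9144 bases), Insr (8762 bases), Irs2 (6323 bases) and Igfbp5 (5978 bases) were longer than 93.4% to 99.4% of tested genes, while Igfbp6 (1112 bases) and Igfbp7 (1117 bases) were longer than 12.9% and 13% only. Values with the length trend removed are given beside these long and short genes.

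Levels of the 10 genes spanned about 2 orders of magnitude. In NR hearts Igfbp7 stood highest with 87.5 ± 34.5 TPM (SD, n = 4), from 56.31 to 126.68 TPM, and Igfbp4 followed with 26.6 ± 9.51 TPM. Igfbp6 (13.6 ± 8.38 TPM), Insr (11.8 ± 1.35 TPM) and Igfbp5 (8.83 ± 2.2 TPM) came next. Igfbp3 had 4.89 ± 0.994 TPM, and the remaining genes were lower still, with Igf1 at 1.48 ± 0.795, Igf1r at 1.38 ± 0.242, Irs2 at 1.13 ± 0.239 and Irs1 at 0.972 ± 0.297 TPM. Between neighbours in this order, the ranges over the 4 NR libraries were apart only for Igfbp7 above Igfbp4 and for Igfbp3 above Igf1. The ranges of the other neighbours overlapped, but levels moved together between libraries, and Igfbp4 was above Igfbp6, Insr above Igfbp5 and Igfbp5 above Igfbp3 in 4 of 4 NR libraries. Per transcript length, the insulin receptor was 8.67 ± 1.17 times the level of the IGF1 receptor in NR (SD, n = 4), 8.19 ± 0.255 times after S-PRT and 6.22 ± 1.55 times after F-PRT.

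**Figure D1:**
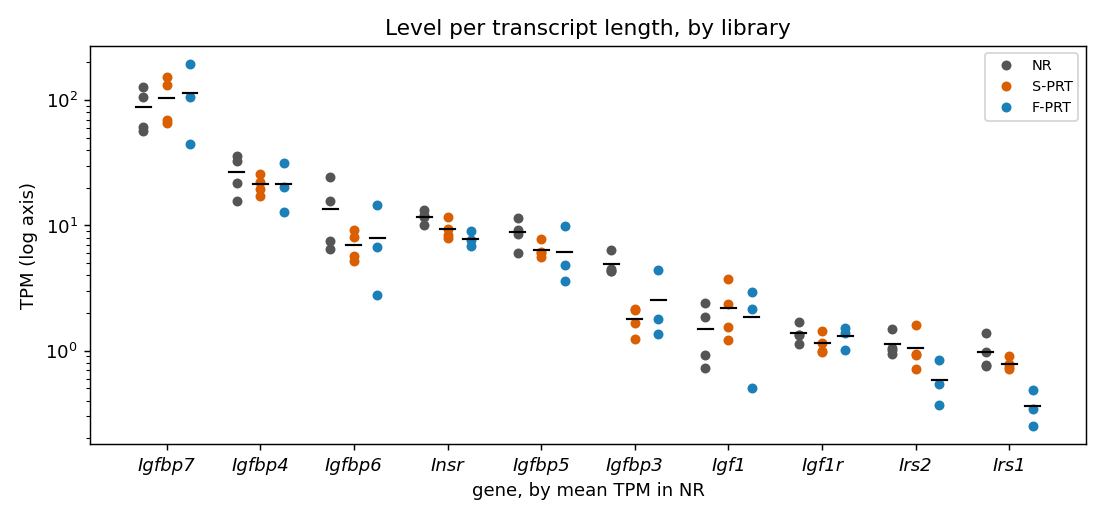
Level of each gene in each of the 11 libraries in TPM on a log axis, with genes ordered by their mean in NR and a bar at each group mean. Igfbp7 lies above the other 9 genes in every group, and Irs1 is the lowest by group mean in each, from 0.972 TPM in NR to 0.36 TPM in F-PRT.

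In S-PRT the order changed at Igfbp3, whose mean of 1.78 ± 0.429 TPM fell behind that of Igf1 (2.21 ± 1.11 TPM), although their ranges overlapped. It also changed at Insr (9.37 ± 1.68 TPM), which stood above Igfbp6 (7.03 ± 1.88 TPM) in 4 of 4 S-PRT libraries, with overlapping ranges. In F-PRT the adaptors Irs2 (0.583 ± 0.238 TPM, n = 3) and Irs1 (0.36 ± 0.121 TPM) lay apart from Igf1r (1.3 ± 0.259 TPM), with the lowest Igf1r value of 1.01 TPM above the highest Irs2 value of 0.84 TPM. All later values are CPM, counts relative to the library total after TMM scaling, a method that corrects for differences in composition between libraries, unless TPM is named. Comparisons use edgeR's quasi-likelihood test with Benjamini-Hochberg adjustment over all 14556 genes, and a gene is called at an adjusted p under 0.05.

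Igf1 (ENSMUSG00000020053.19) encodes the secreted ligand of the IGF1 receptor. NR replicates 1 to 4 had 5.87, 4.78, 7.35 and 7.44 CPM, S-PRT replicates 1 to 4 had 7.8, 5.82, 12.2 and 7.72 CPM, and F-PRT replicates 2 to 4 had 7.94, 4.06 and 6.33 CPM. S-PRT replicate 3 was the highest of all 11 libraries, and the groups overlapped. The log2 fold change was 0.40 ± 0.24 (SE) in S-PRT against NR (95% interval -0.12 to 0.92, adjusted p = 0.4) and -0.05 ± 0.26 in F-PRT against NR (-0.62 to 0.52, adjusted p = 0.91), so a change of the size seen for Irs1 lies outside the interval of the latter. Its deposited isoform-averaged length ran from 3014.47 bases in F-PRT replicate 2 to 6212.11 bases in F-PRT replicate 3. Its TPM was less even than its CPM, and the part of length in this was not tested. Igf2, the other IGF ligand, was not called in either comparison with NR (-0.39 ± 0.27, adjusted p = 0.48 after S-PRT and -0.52 ± 0.30, adjusted p = 0.23 after F-PRT).

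**Figure D2:**
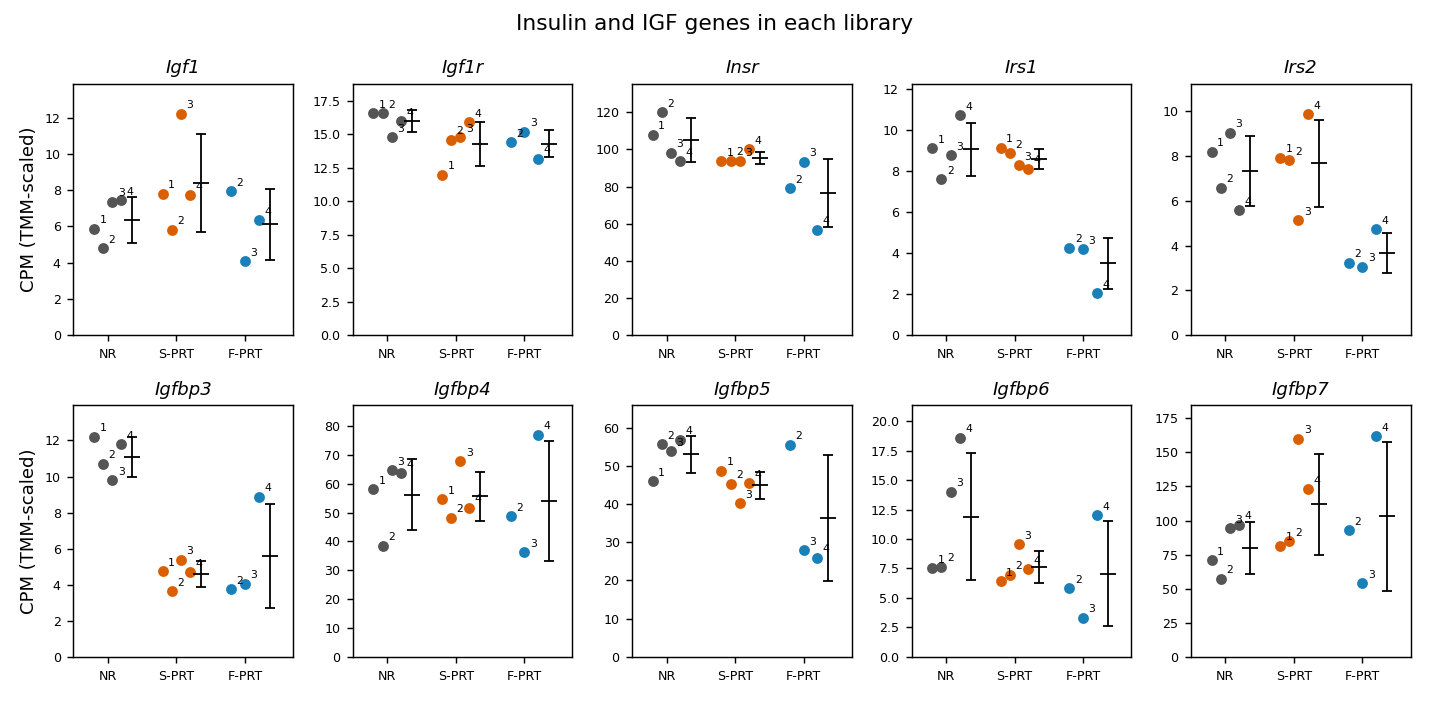
CPM of each gene in every library, with replicate numbers beside the points and group mean ± SD as bars (n = 4 for NR, 4 for S-PRT and 3 for F-PRT). Igfbp3 is lower in all 7 irradiated libraries than in NR, and for Irs1 and Irs2 the 3 F-PRT libraries lie below the other 8, while Igf1, Igf1r and Igfbp4 overlap between groups.

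Insr (ENSMUSG00000005534.11), the insulin receptor, fell after F-PRT. NR replicates 1 to 4 had 108, 120, 98.3 and 93.6 CPM, S-PRT replicates 1 to 4 had 93.6, 93.9, 93.7 and 100 CPM, and F-PRT replicates 2 to 4 had 79, 93.4 and 56.8 CPM. All 3 F-PRT libraries were below all NR and S-PRT libraries, but replicate 3 by only a fraction of a CPM. Against NR the log2 fold change was -0.46 ± 0.14 (-0.77 to -0.15, edgeR adjusted p = 0.039), a 1.38-fold lower level. The call was lost with the length trend removed (-0.06 ± 0.08, adjusted p = 0.71), and it was also lost when any of 7 libraries was left out, which were NR replicates 1 (adjusted p = 0.088), 2 (0.098) and 3 (0.059), those numbered 1 (0.052) and 2 (0.054) of S-PRT, and those numbered 2 (0.076) and 4 (-0.28, adjusted p = 0.11) of F-PRT. It was lost as well when only NR and F-PRT were fitted (-0.47, adjusted p = 0.078) and with library size scaling (-0.44, adjusted p = 0.1). The same held with replicate number as a block (-0.48, edgeR adjusted p = 0.15). On log2(TPM + 1) it was -0.53 and on log2(TPM + 0.1) -0.58, also not called (limma adjusted p = 0.21 for each). In S-PRT against NR it was -0.14 ± 0.13 (-0.42 to 0.14, adjusted p = 0.62), and in F-PRT against S-PRT -0.32 ± 0.14 (-0.63 to -0.02, adjusted p = 0.3).

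Igf1r (ENSMUSG00000005533.11), the IGF1 receptor, varied little. It had 14.8 to 16.6 CPM in NR hearts, 12 to 15.9 CPM after S-PRT and 13.2 to 15.2 CPM after F-PRT. Its log2 fold change was -0.16 ± 0.10 (-0.36 to 0.05, adjusted p = 0.42) in S-PRT and -0.16 ± 0.11 (-0.39 to 0.06, adjusted p = 0.28) in F-PRT against NR. With the length trend removed the F-PRT value turned to 0.32, and Igf1r has the longest transcript of the 10 genes.

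Irs1 (ENSMUSG00000055980.3) and Irs2 (ENSMUSG00000038894.8), the docking proteins of both receptors, were lower in F-PRT than in the other groups. For Irs1, NR replicates 1 to 4 had 9.09, 7.59, 8.77 and 10.7 CPM, S-PRT replicates 1 to 4 had 9.13, 8.87, 8.28 and 8.1 CPM, and F-PRT replicates 2 to 4 had 4.25, 4.17 and 2.04 CPM. All 3 F-PRT libraries were below the other 8, and S-PRT lay within the NR range. The log2 fold change was -0.08 ± 0.18 in S-PRT against NR, -1.40 ± 0.22 in F-PRT against NR (2.64-fold lower) and -1.32 ± 0.22 in F-PRT against S-PRT. These values led to the choice of genes and are not tested here. With the length trend removed the F-PRT value was -1 ± 0.19, and on the log2(TPM + 1) scale, which understates changes of low genes, it was -0.53. Irs1 had fractional expected counts in each of the 11 libraries, which shows that some reads were divided with other genes and leaves its level uncertain, while the counts of the other 9 genes were whole in every library.

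For Irs2, NR replicates 1 to 4 had 8.2, 6.58, 9.04 and 5.57 CPM, S-PRT replicates 1 to 4 had 7.93, 7.81, 5.14 and 9.86 CPM, and F-PRT replicates 2 to 4 had 3.23, 3.06 and 4.72 CPM. The F-PRT libraries were again below all 8 others, on 85, 55 and 164 expected counts. Irs2 fell in F-PRT against NR (log2 fold change -0.98 ± 0.24, -1.5 to -0.46, edgeR adjusted p = 0.018, 1.97-fold lower). The call was lost with the length trend removed (-0.62 ± 0.26, adjusted p = 0.19), without F-PRT replicate 2 (-0.89, adjusted p = 0.06) and with scaling by library size only (-0.90, adjusted p = 0.097). It was also lost on both TPM scales and with replicate number as a block. In S-PRT against NR the value was 0.07 ± 0.21 (-0.39 to 0.53, adjusted p = 0.9), and it turned below 0 on the log2(TPM + 1) scale (-0.07) and when scaled by library size (-0.05). The direct comparison of F-PRT with S-PRT gave -1.05 ± 0.24 (-1.57 to -0.53, edgeR adjusted p = 0.18), which did not pass, whereas DESeq2 called it (-1.07, adjusted p = 0.0073). Per transcript length the adaptors stood close to each other, with an Irs2 to Irs1 ratio (± SD) of 1.22 ± 0.319 in NR hearts, 1.31 ± 0.353 after S-PRT and 1.85 ± 1.31 after F-PRT.

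**Figure D3:**
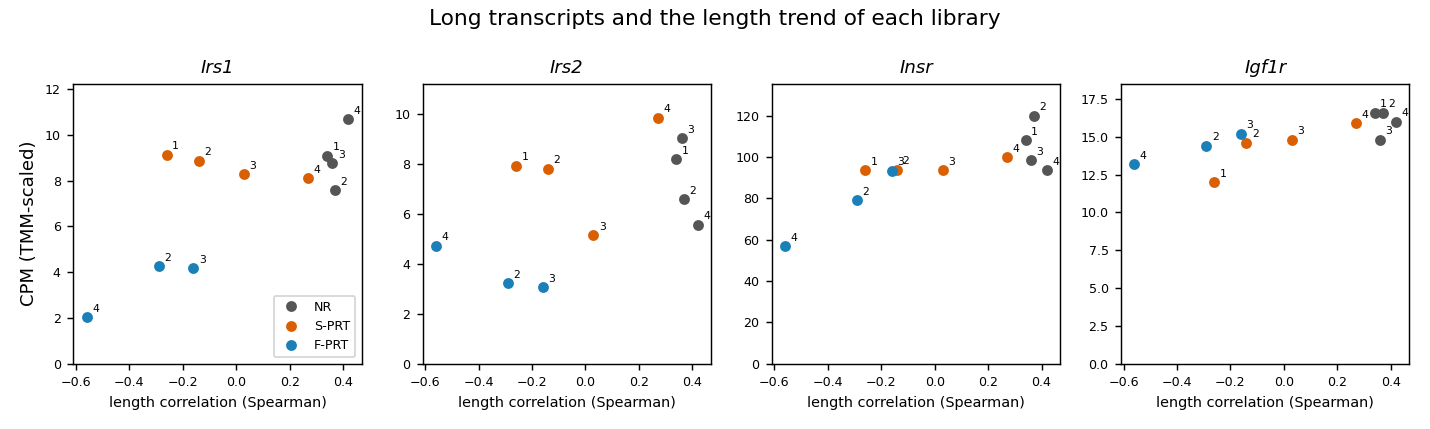
CPM of the 4 genes with long transcripts against the Spearman correlation of each library's expression with transcript length, with replicate numbers beside the points. Irs1 and Irs2 in F-PRT replicates 2 and 3 lie below S-PRT replicates 1 and 2, which have length correlations of -0.26 and -0.14 against -0.29 and -0.16, while Insr in F-PRT replicate 3 lies at the S-PRT level.

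S-PRT replicates 1 and 2 and F-PRT replicates 2 and 3 had similar length correlations (-0.26, -0.14, -0.29 and -0.16). At these, Irs1 was 9.13 and 8.87 CPM in the S-PRT pair against 4.25 and 4.17 CPM in the F-PRT pair, and Irs2 was 7.93 and 7.81 against 3.23 and 3.06 CPM. Insr was 93.6 and 93.9 against 79 and 93.4 CPM. Outside these libraries, Irs2 was 5.14 CPM in S-PRT replicate 3 (length correlation 0.03) and 4.72 CPM in F-PRT replicate 4 (-0.56). Irs1 was 8.28 and 2.04 CPM in the same libraries. These are values of single libraries and carry no test, and the part of the length trend in them was not tested.

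Igfbp3 (ENSMUSG00000020427.12), the main IGF carrier of the blood and a secreted protein of vascular and stromal cells, was lower after both kinds of irradiation. NR replicates 1 to 4 had 12.2, 10.7, 9.78 and 11.8 CPM, S-PRT replicates 1 to 4 had 4.76, 3.64, 5.38 and 4.69 CPM, and F-PRT replicates 2 to 4 had 3.76, 4.06 and 8.89 CPM. All 7 irradiated libraries were below the NR range, and F-PRT replicate 4 stood apart from the other irradiated libraries on the high side. On the log2 scale the difference was -1.26 ± 0.23 in S-PRT against NR (2.4-fold lower) and -0.97 ± 0.25 in F-PRT against NR (1.96-fold lower). Without F-PRT replicate 4 the latter was -1.51. F-PRT against S-PRT gave 0.29 ± 0.25, which turned to -0.25 without F-PRT replicate 4. Removing the length trend left the F-PRT value at -1.01 ± 0.25, and Igfbp3, at 2377 bases, is longer than 47.2% of tested genes. These values also led to the choice of genes and carry no test.

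Of 9 endothelial markers, 2 fell, 0 rose and 7 were not called after S-PRT, where 1.29% of all genes were called. There 7 of the 9 were below 0, with a median of -0.55, and 4 lay wholly below NR, as did 6.71% of all genes. Those that fell were Tek (-0.97 ± 0.17, adjusted p = 0.027) and Flt1 (-0.93 ± 0.18, adjusted p = 0.032), which are receptors for angiopoietins and vascular endothelial growth factor. After F-PRT Tek (-1.19 ± 0.19, adjusted p = 0.0054) and Flt1 (-0.82 ± 0.20, adjusted p = 0.017) fell and Egfl7, a secreted endothelial factor, rose (0.73 ± 0.16, adjusted p = 0.013), where 19.5% of all genes were called. Of those not called after S-PRT, Kdr (-0.75 ± 0.21, adjusted p = 0.096) and Tie1 (-0.83 ± 0.24, adjusted p = 0.1) also lay wholly below NR. Pecam1, a junction protein of endothelial cells, had 0.02 ± 0.21 (adjusted p = 0.98) after S-PRT and -0.11 ± 0.23 (adjusted p = 0.76) after F-PRT. Summed over the 9 markers the level was 121 to 256 TPM in NR hearts, 98.2 to 182 TPM after S-PRT and 104 to 299 TPM after F-PRT, with F-PRT replicate 4 highest, as for Igfbp3 within that group. That library was also highest of its group in summed cardiomyocyte (54200 TPM), fibroblast (564 TPM), mural (203 TPM) and erythroid (4400 TPM) markers. It was not highest in summed macrophage markers (191 TPM against 233 TPM in replicate 2). Its mitochondrial share of counts was the lowest of all libraries (24.2%). In bulk tissue, fewer cells of a type and less RNA per cell cannot be told apart. Among 10 macrophage markers, Ccr2 of recruited monocytes rose (2.33 ± 0.25, adjusted p = 0.0032 after S-PRT and 2.18 ± 0.27, adjusted p = 0.0024 after F-PRT) and Cd163 of resident macrophages fell (-1.51 ± 0.20, adjusted p = 0.0055 and -1.84 ± 0.22, adjusted p = 0.0022). Lyve1 and Mrc1 of the same list were not called, with -0.08 and 0.19 after S-PRT and -0.34 and 0.05 after F-PRT. The complement genes C1qa (0.91 ± 0.29, adjusted p = 0.045) and C1qb (0.93 ± 0.30, adjusted p = 0.046) rose after F-PRT, and the macrophage sum was 71.2 to 150 TPM in NR hearts, 99.6 to 245 TPM after S-PRT and 86.1 to 233 TPM after F-PRT. After F-PRT 1 of 8 mural markers fell, the channel subunit Abcc9 (-0.81 ± 0.16, adjusted p = 0.0098). The others were not called, and 2 were above 0, up to 1.14 for Tagln. Of 7 cardiomyocyte markers 1 fell there, the calcium channel Ryr2 (-0.86 ± 0.22, adjusted p = 0.022). The others were not called, and 3 were above 0, Tnnt2 (0.25), Myl2 (0.33) and Tnni3 (0.35). Of 4 endocardial and venous markers 1 fell after F-PRT, the natriuretic peptide receptor Npr3 (-1.04 ± 0.31, adjusted p = 0.035). The atrial myosin light chain Myl4, the only atrial marker tested, rose after F-PRT (1.01 ± 0.25, adjusted p = 0.019). All these marker values were computed without removing the length trend, and its part in them was not tested. With that trend removed, the genes called in F-PRT against NR went from 2841 to 512 of 14556. The part of these cell types in the Igfbp3 values was not tested.

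Igfbp7 (ENSMUSG00000036256.14), the vascular member that dominates the family here, had 71, 57.3, 94.5 and 96.8 CPM in NR replicates 1 to 4, 81.5, 84.7, 160 and 123 CPM in S-PRT replicates 1 to 4 and 93, 53.9 and 162 CPM in F-PRT replicates 2 to 4. Replicates 3 and 4 were above 1 and 2 in NR and in S-PRT, and the groups overlapped. The log2 fold change in S-PRT against NR was 0.49 ± 0.30 (-0.17 to 1.15, adjusted p = 0.42). In a fit that takes replicate numbers as pairs of NR and S-PRT libraries (the replicate block), Igfbp7 was called higher (0.46 ± 0.09, edgeR adjusted p = 0.016). Each S-PRT library was above the NR library of the same number. Libraries went together as replicates 1 and 2 and as 3 and 4 rather than number by number, so this pairing is not established. In F-PRT against NR it was 0.37 ± 0.33 (-0.34 to 1.08, adjusted p = 0.44), and -0.12 without F-PRT replicate 4. With the length trend removed it was 0.02 ± 0.31 (adjusted p = 0.98) in F-PRT and 0.36 ± 0.29 (adjusted p = 0.61) in S-PRT.

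The makeup of the binding protein transcripts is given as a description, since it includes Igfbp3, whose values led to the choice of genes. Igfbp7 made up 61.7% ± 0.929 of the summed TPM of the 5 binding proteins in NR (60.9% to 63%), 72.8% ± 5.34 in S-PRT (66.8% to 77.9%) and 73.2% ± 4.7 in F-PRT (68.4% to 77.8%), so the lowest irradiated library was above the highest NR library (SD, not tested). Igfbp7 has a short transcript, these shares were computed without removing the length trend, and its part in them was not tested. The share of Igfbp3 was 3.71% ± 0.97 without irradiation, 1.31% ± 0.258 after S-PRT and 1.7% ± 0.434 after F-PRT. There were 17.6 ± 5 Igfbp7 transcripts per Igfbp3 transcript in NR hearts, 57.5 ± 13.6 after S-PRT and 45.3 ± 13.3 after F-PRT, on the TPM scale. The Igfbp3 share and this ratio restate in part the Igfbp3 difference and are not a separate result. The summed level itself was 141 ± 54.7 TPM in NR hearts, 141 ± 50.2 TPM after S-PRT and 153 ± 92.9 TPM after F-PRT, so the spread within groups exceeded the differences between their means.

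Igfbp4 (ENSMUSG00000017493.13), an inhibitory binding protein that is cleaved by the protease PAPP-A, showed no difference beyond its spread. It had 38.5 to 64.7 CPM in NR hearts, 48.2 to 67.8 CPM after S-PRT and 36.2 to 77 CPM after F-PRT. Against NR the log2 fold changes were -0.02 ± 0.21 (-0.48 to 0.45, adjusted p = 0.98) and -0.05 ± 0.23 (-0.56 to 0.45, adjusted p = 0.89). A change as large as that of Igfbp3 lies outside both intervals.

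Igfbp5 (ENSMUSG00000026185.9), a binding protein that attaches to matrix, had 45.9, 55.7, 53.8 and 56.8 CPM in NR replicates 1 to 4, 48.7, 45.3, 40.2 and 45.4 CPM in S-PRT replicates 1 to 4 and 55.5, 27.9 and 25.9 CPM in F-PRT replicates 2 to 4. F-PRT replicates 3 and 4 were the lowest of the 11, while replicate 2 lay within the NR range. The log2 fold change of F-PRT against NR was -0.54 ± 0.21 (-1 to -0.08, edgeR adjusted p = 0.085) and did not pass. Without F-PRT replicate 2 it was called (-0.98, adjusted p = 0.0061), as it was by DESeq2 (-0.57, adjusted p = 0.038) and with no filter on low counts (-0.56, adjusted p = 0.023). With the length trend removed it was -0.24 (adjusted p = 0.51). In S-PRT against NR it was -0.24 ± 0.19 (-0.66 to 0.18, adjusted p = 0.54).

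Igfbp6 (ENSMUSG00000023046.7), which prefers IGF2 over IGF1, had 7.52, 7.66, 14 and 18.6 CPM in NR replicates 1 to 4, 6.43 to 9.57 CPM in S-PRT and 5.85, 3.34 and 12 CPM in F-PRT replicates 2 to 4. NR replicates 3 and 4 were high and the groups overlapped. Its log2 fold change was -0.66 ± 0.35 (-1.42 to 0.11, adjusted p = 0.35) in S-PRT and -0.73 ± 0.39 (-1.57 to 0.11, adjusted p = 0.19) in F-PRT against NR, and without F-PRT replicate 4 the latter was called (-1.37, adjusted p = 0.046). With the length trend removed it was -1.1 ± 0.37 (adjusted p = 0.11) in F-PRT. Summed TPM of several marker lists was also higher in NR replicates 3 and 4. Endothelial markers had 121, 134, 199 and 256 TPM in NR replicates 1 to 4, and cardiomyocyte markers 27200, 32100, 34600 and 38000 TPM. Endocardial and venous markers did not follow (18.3, 11.8, 11.7 and 23 TPM). The mitochondrial share of counts was 43.8%, 38.8%, 34.9% and 30.6% in these replicates. Nothing particular to a cell type is therefore read from the sums below. Summed mesothelial markers (6 genes, 4 of them tested) were at 1, 0.89, 5.36 and 9.06 TPM in NR replicates 1 to 4, at 0.69 to 1.69 TPM in S-PRT and at 0.86 to 2.23 TPM in F-PRT. Summed fibroblast markers (8 genes) were at 504, 336, 703 and 835 TPM in NR replicates 1 to 4, at 332 to 418 TPM in S-PRT and at 276, 157 and 564 TPM in F-PRT replicates 2 to 4. After F-PRT 2 of the 8 fell, where 8.67% of all genes fell. These were the growth factor receptor Pdgfra (-1.34 ± 0.25, adjusted p = 0.0086) and gelsolin, Gsn (-1.13 ± 0.32, adjusted p = 0.03). After S-PRT 0 of the 8 fell, where 0.419% of all genes fell. The length trend was not removed from these values, and nothing particular to fibroblasts is read from the counts. The part of these markers in the Igfbp6 values was not tested.

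Of the other binding proteins, Igfbp1 was at 0 in all 11 libraries and Igfbp2 had at most 14 counts. In RefSeq Igfbp1 is the neighbour of Igfbp3 and Igfbp2 the neighbour of Igfbp5, so in each of these gene pairs a single member was measurable in the apex. The acid-labile subunit gene Igfals, whose product completes the serum complex with Igfbp3, was not called (-0.21 ± 0.26, adjusted p = 0.71 after S-PRT and 0.18 ± 0.28, adjusted p = 0.67 after F-PRT).

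**Figure D4:**
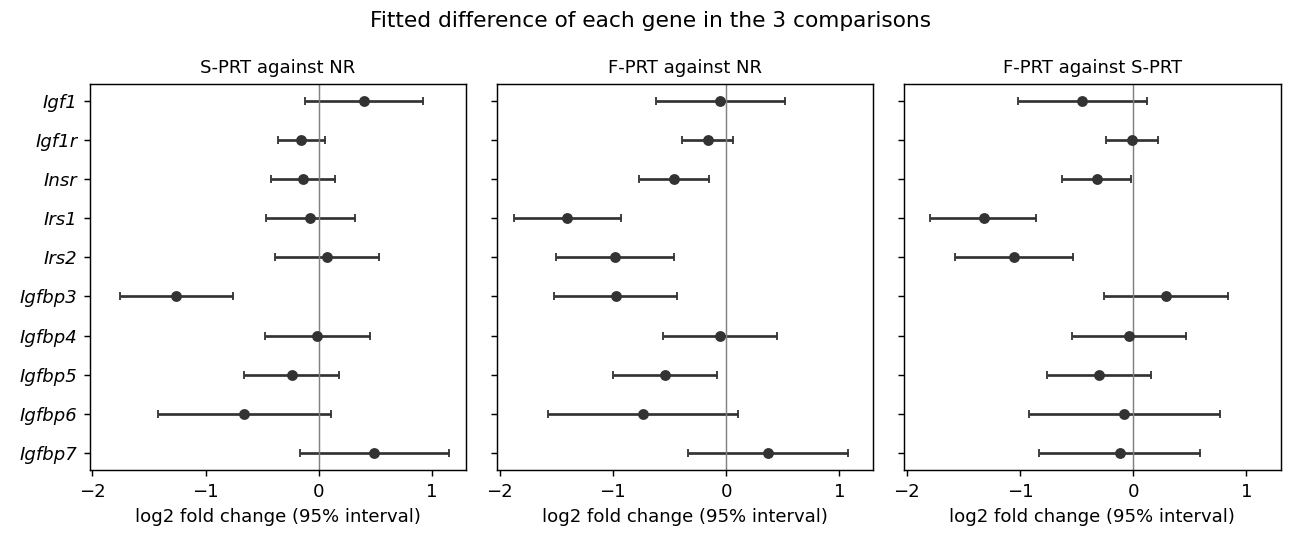
Fitted log2 fold change of each gene with its 95% interval from the edgeR fit in the 3 comparisons, where the intervals of Igfbp3 and Irs1 are shown as a description. In F-PRT against NR 9 of 10 values are below 0, and Igfbp7 (0.37) is the only one above.

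Set side by side, S-PRT and F-PRT share the NR libraries, so their values are not independent. Calls are counted over the 8 genes besides Igfbp3 and Irs1, whose values led to the choice. In S-PRT against NR 0 of the 8 were called by edgeR or DESeq2, where edgeR called 1.29% of all tested genes (0.419% lower), and 0 of the 8 reached an unadjusted p under 0.05, as 18.3% of all genes did. With the replicate block, a pairing by number that is not established, Igfbp7 was called. The range of 0 of the 8 lay wholly below NR, as did that of 6.71% of all genes. In F-PRT against NR 2 of the 8 were called, Insr and Irs2, both lower, where 19.5% of all genes were called (8.67% lower). With the length trend removed 0 of the 8 were called, where 512 of 14556 genes were called. Insr and Irs2 also lay wholly below NR, as did 13.9% of all genes. In F-PRT against S-PRT edgeR called 0 of the 8 and 0% of all genes, while DESeq2 called Irs2 among the 8 and 168 of all genes. Insr and Irs2 had an unadjusted p under 0.05 there, as did 15.9% of all genes, and lay wholly below S-PRT, as did 5.17%. As a description that includes Igfbp3 and Irs1, the median log2 fold change of the 10 genes was -0.11 in S-PRT and -0.5 in F-PRT against NR, against 0.00685 and 0.0283 over all genes. Since the genes were chosen with these values in view, nothing is read from the shares.

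**Figure D5:**
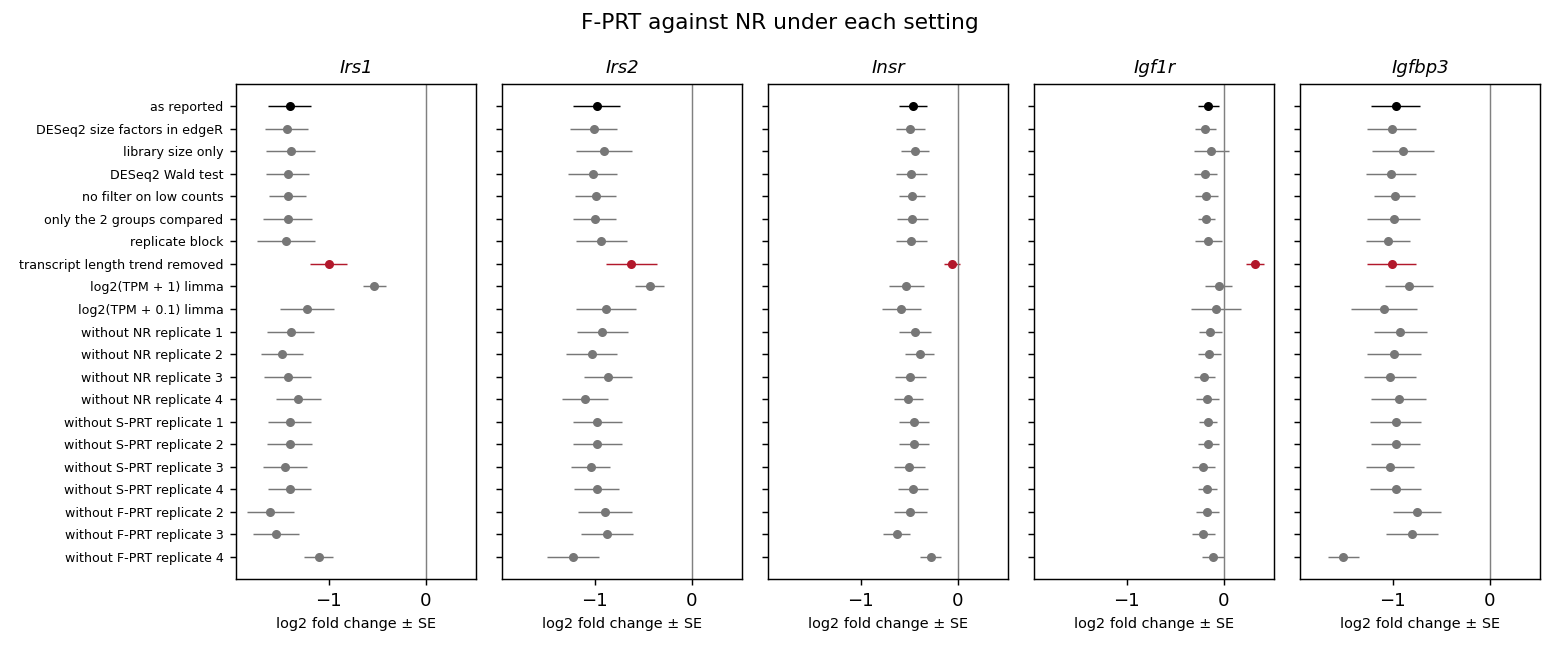
Log2 fold change ± SE of F-PRT against NR for 5 genes as reported (black), with the transcript length trend removed (red) and under the other settings (grey). Irs1, Irs2 and Igfbp3 stay below 0 in all, Insr moves to -0.06 and Igf1r to 0.32 with the length trend removed, and Igfbp3 is lowest without F-PRT replicate 4 (-1.51).

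Of 71 other genes of insulin and IGF signalling, 63 were tested. In F-PRT against NR 13 were called, 2 higher and 11 lower, where 19.5% of all genes were called, 10.8% higher and 8.67% lower. The median log2 fold change of the 63 was -0.24 against 0.0283 over all genes, and nothing particular to the list is read from these values. Eif4ebp1, a translation repressor that mTOR inactivates, rose from 38.4 ± 3.27 to 54.2 ± 1.59 CPM (0.50 ± 0.09, adjusted p = 0.0079), and Socs2, a feedback inhibitor of growth hormone signalling, rose from 23.2 ± 3.29 to 35.3 ± 4.18 CPM (0.61 ± 0.13, adjusted p = 0.011). Among genes downstream of the adaptors, Pdpk1, the kinase that activates Akt, fell from 28.9 ± 2.04 to 19.9 ± 2.15 CPM (-0.54 ± 0.09, adjusted p = 0.0065). The Akt substrates Tbc1d4, which gates glucose transporter traffic, and Gsk3b, which restrains glycogen synthesis, fell by 0.58 ± 0.11 (adjusted p = 0.0091) and 0.54 ± 0.11 (adjusted p = 0.011) on the log2 scale. Of 15 FoxO factors and FoxO target genes 3 fell and 0 rose (8.67% of all genes fell), among them Cited2 (-0.50 ± 0.13, adjusted p = 0.02) and the cell cycle inhibitor Cdkn1b (-0.36 ± 0.09, adjusted p = 0.021). Ghr, the growth hormone receptor upstream of Igf1, fell too (-0.44 ± 0.11, adjusted p = 0.021). The remaining genes called were lower too, and those named next were picked out after their values were seen. They were the IGF2 scavenger receptor Igf2r (-0.49 ± 0.14, adjusted p = 0.027), the secreted protease Htra3 (-0.95 ± 0.28, 0.036), the mTOR complex subunit Rptor (-0.38 ± 0.12, 0.037) and the glucose uptake inhibitor Txnip (-0.97 ± 0.29, 0.036). The 5 tested genes of insulin-regulated glucose handling had log2 fold changes of -0.28 to 0.58, the lowest for the glycogen synthase Gys1 (-0.28 ± 0.12, adjusted p = 0.099), and Slc2a4, the insulin-responsive glucose transporter, had -0.01 ± 0.09 (adjusted p = 0.94). The kinases Akt1 (0.24 ± 0.09, adjusted p = 0.084) and Akt2 (0.00 ± 0.08, adjusted p = 1) and the factor Foxo1 (-0.27 ± 0.10, adjusted p = 0.079) were not called. With the length trend removed the count of the 63 went from 13 to 5, with Pdpk1 at -0.17 (adjusted p = 0.2), Gsk3b at -0.15 (0.33) and Eif4ebp1 at 0.25 (0.19). Without NR replicate 1, NR replicate 2, F-PRT replicate 2 or F-PRT replicate 3 it was 5, 8, 6 or 22.

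In S-PRT against NR edgeR called 0 of the 63, with a median of -0.07 and 10 at an unadjusted p under 0.05, as 18.3% of all genes had. DESeq2 called 4, all lower, where it called 697 of 14553 genes (237 lower). The fit with the replicate block called 7, all lower, where it called 1371 of 14069 genes (468 lower). Nothing particular to the list is read from these counts. The smallest p-values belonged to Tbc1d4 (-0.42 ± 0.10, adjusted p = 0.065, and 0.013 with the replicate block) and Txnip (-1.07 ± 0.27, adjusted p = 0.071, and 0.0043 with the block). In F-PRT against S-PRT edgeR again called 0, with a median of -0.05 and 14 at an unadjusted p under 0.05, as 15.9% of all genes had. DESeq2 called 2, where it called 168 of 14553 genes. Pdpk1 (-0.36 ± 0.09, adjusted p = 0.18) and Grb10, an adaptor that inhibits both receptors (-0.24 ± 0.07, adjusted p = 0.18), had the smallest p-values.

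The 5 genes whose log2 CPM followed Igfbp3 most closely over the 11 libraries, of 10590 considered, were Pde2a (Pearson r = 0.964), Cxcl12 (0.943), Dock9 (0.939), Ednrb (0.929) and Snrk (0.913). Their log2 fold changes were -1.22 to -0.63 in S-PRT and -1.18 to -0.38 in F-PRT against NR. For Irs1 they were Il6st (r = 0.976), Ggcx (0.971), Tpp2 (0.967), Lpin1 (0.957) and Smurf2 (0.954), with fold changes of -0.12 to 0.04 in S-PRT and of -0.52 to -0.34 in F-PRT, smaller than the -1.40 of Irs1. Both sets were picked by likeness over all 11 libraries, group differences included, so fold changes in the direction of Igfbp3 or Irs1 follow from the choice. Nothing is read from those fold changes. The libraries share their depth and length trend between genes, so these correlations are a description with no p-value.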

How the data were processed

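Bulk RNA-seq of 11 libraries was used as deposited. Per the labels' protocols, total RNA was poly(A) selected and prepared with a directional kit, and strand-specific counting is not stated. The tools named, per the submitters' processing notes, are STAR, RSEM, edgeR, cutadapt and FastQC, and the builds named are mm10 and GRCm39, so the build is unsettled. Per the file headers, the deposited values are expected counts, in which ambiguous reads are shared between genes by a model, TPM, and gene and effective lengths averaged over isoforms. Of 55414 identifiers, 52081 matched a symbol and the other 3333 held 0.0715% to 0.355% of counts.

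Expected counts were rounded, filtered with filterByExpr (minimum count 10, minimum total 15), scaled with TMM and fitted together with edgeR 4.0.16 under R 4.3.3, which left 8 residual degrees of freedom. Log2 CPM used a prior count of 2. Values with the length trend removed used a loess of span 0.5 on log length per library as offsets. Alternatives also used DESeq2 1.42.0 and, for TPM, limma 3.58.1. Counts were called not whole beyond a tolerance of 1e-09. The fit was checked on simulated data, and no libraries of a group were alike within counting noise. The precision of low genes is limited by counts such as the 55 to 164 of Irs2 in F-PRT.

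The 10 genes, the list of 71 other pathway genes and the 12 marker lists were chosen with earlier results of these data known. Named were all 10 genes; called pathway genes, up to 6 per direction by p, or the 2 with the smallest p; the 5 genes most like Igfbp3 and Irs1 at a mean log2 CPM of at least 1; and markers at 0, called or defining the tissue. A called pathway gene is not reported here. Replicate numbers were checked by correlating deviations from group means over 11107 genes. Same-numbered NR and S-PRT libraries had 0.27, 0.28, 0.36 and 0.18, which met the rule that all exceed 0.1. From titles and data alone, these numbers served as pairs only in the alternative fit with the replicate block. The reported fit used no block. Other pairs were as close (NR 2 with S-PRT 1 0.44, NR 3 with S-PRT 4 0.37, NR 4 with S-PRT 3 0.35), so replicates 1 and 2 go together and 3 and 4 go together rather than number by number. Same-numbered F-PRT libraries did not pair with NR (-0.15, -0.45 and 0.23) or S-PRT (-0.36, -0.39 and -0.16).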

Additional observations from a re-analysis of the deposited data

Results flagged for a closer look

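In 20 groups of 4 libraries (10 genes in NR and S-PRT), 1 value lay far from the others of its group: Insr in S-PRT replicate 4, with 100 CPM against 93.9 CPM for the nearest of the other 3 libraries. Its gap to that library was 0.953 of the group's range, above Dixon's critical value for 4 libraries. Chance alone gives about such a result in 1 of 20 groups. The gap is small beside the level itself, and S-PRT replicate 4 also has the highest length correlation of its group (0.27).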

How the results depend on the processing

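All alternatives were listed with the design. For S-PRT against NR, 188 genes were called as reported and 14 with library size only, 697 by DESeq2, 605 with no filter, 557 with only those groups, 1371 (903 higher and 468 lower) with the replicate block, 44 with the length trend removed, 2 on log2(TPM + 1), 3 on log2(TPM + 0.1) and 26 to 444 with a library left out. Igfbp3 and Irs1, whose values led to the choice of genes, are left out of the counts that follow. Of the other 8 genes 0 were called, against 1 with the block (Igfbp7). Of the pathway genes 0 were called, against 4 by DESeq2, 2 with no filter, 5 with only those groups, 7 with the block and 0 to 3 with a library left out. For F-PRT against NR, 2841 genes became 134 with library size only, 29 with the replicate block, 512 with the length trend removed, 71 and 74 on the TPM scales and 1382 to 3784 with a library left out. Of the other 8 genes 2 were called, Insr and Irs2. Neither was called with library size only, with the block, with the length trend removed or on the TPM scales. The 13 pathway genes became 0, 0, 5, 1 and 1 in the order of the settings for all genes, and 5 to 22 with a library left out. F-PRT numbers do not pair, so the block there tests no real pairing, and the pairing of NR with S-PRT number by number is not established. For F-PRT against S-PRT, 0 genes became 3 with DESeq2 size factors, 168 by DESeq2, 71 with no filter, 9 and 4 on the TPM scales and 0 to 103 with a library left out (103 without F-PRT replicate 3). Of the other 8 genes Irs2 was called by DESeq2 and with no filter. Pathway genes gave 2 by DESeq2 and 0 to 2 with a library left out. Scaling shifted the median of all genes by -0.14 for S-PRT against NR and, for the irradiated groups, by 0.19 with library size only, by -0.13 and 0.13 on log2(TPM + 1) and by -0.19 and 0.19 on log2(TPM + 0.1).

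The following directions turned. In S-PRT against NR, Insr was 0.00 with the length trend removed, and Irs2 was -0.05 with library size only, -0.07 and -0.14 on the TPM scales and -0.08 to 0.22 with a library left out. With a library left out Igfbp4 was -0.16 to 0.06 and Irs1 -0.15 to 0.02, and Irs1 was 0.05 with the length trend removed. In F-PRT against NR, Igf1 was 0.00 with library size only, 0.14 with the length trend removed, 0.15 and 0.17 on the TPM scales and -0.28 to 0.16 with a library left out. Igf1r was 0.32 with the length trend removed. Igfbp4 was 0.03 with library size only and -0.40 to 0.16 with a library left out, and Igfbp7 was -0.12 to 0.68. In F-PRT against S-PRT, Igf1r was 0.16 with library size only, 0.33 with the length trend removed, 0.10 and 0.17 on the TPM scales and -0.09 to 0.04 with a library left out. With library size only, Igfbp4 was 0.20, Igfbp6 0.17 and Igfbp7 0.12, and with a library left out they were -0.39 to 0.17, -0.71 to 0.23 and -0.61 to 0.18, with Igfbp3 at -0.25 to 0.51. The cause of these changes was not tested. Of the 8 genes besides Igfbp3 and Irs1, the replicate block changed no other call in S-PRT against NR than that of Igfbp7.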

Other observations

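Besides Irs1, Irs2 and Irs4, the E-box within 10 bases of TGTTTTG stood in the promoter windows of 12 more genes, of which 5 were tested, Fam214a, Klf11, Pcbp1, Pyroxd1 and Zfp791. In F-PRT against NR their median log2 fold change was -0.26, with 3 of 5 below 0, from -0.52 for Zfp791 (edgeR adjusted p = 0.22) and -0.48 for Klf11 (adjusted p = 0.066) to 0.05 for Pcbp1 (adjusted p = 0.66). These values stand beside -1.40 for Irs1 and -0.98 for Irs2.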
